A study of Capra hircus with 12 samples.

Results

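Aminoacyl-tRNA synthetases are the enzymes that load each amino acid onto its transfer RNA (tRNA). Their genes were taken from the goat count tables by symbol. The rule took every row named with a single-letter amino acid code followed by ARS, with or without a closing 1 or 2, together with FARSA, FARSB and EPRS. It found 37 of the 28910 rows, the same 37 in both tables, without use of any measured value. The 17 genes whose symbol ends in ARS2 encode mitochondrial enzymes, and the remaining 20 encode cytosolic enzymes. The tables use older symbols, so that AARS, CARS and EPRS stand for the genes now written AARS1, CARS1 and EPRS1. The row TARSL2, a further threonine enzyme, is not covered by the rule.

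Cells run parallel sets of these enzymes. The cytosolic set serves the proteins encoded in the nucleus, and the mitochondrial set, itself encoded in the nucleus and imported, serves the few respiratory chain proteins encoded in mitochondrial DNA. GARS (glycine) and KARS (lysine) each supply both compartments from a single gene, and mitochondria make their glutaminyl-tRNA by amidation of a mischarged tRNA. EPRS joins the glutamate and proline enzymes in a single chain. Several cytosolic enzymes sit together in the multi-tRNA synthetase complex on the scaffold proteins AIMP1, AIMP2 and EEF1E1. Transcription of many cytosolic synthetase genes, but of few mitochondrial ones, is known to respond to ATF4, the transcription factor of amino acid shortage and the integrated stress response.

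The libraries came from cells of the temporomandibular joint (TMJ) of female goats of 6 to 9 months, collected at abattoirs, and cultured cells were used at passages 3 to 5. From the superficial layer (SLC) and the middle layer of the cartilage (MLC), 3 libraries each were made after IL-1β and 3 after IL-1β+LOXL2. IL-1β, an inflammatory cytokine, was thus common to every group, at 10 ng for 1 h. LOXL2 is a secreted enzyme that crosslinks collagen, and cells had been transduced overnight with an adenovirus carrying it before the cytokine. The methods name an empty adenovirus for another assay on goat TMJ cells, and for the sequenced cells they do not state whether the IL-1β groups were given it. Without it, an effect of LOXL2 and one of the virus cannot be told apart.

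Library totals ranged from 18751323 to 28931652 counts in SLC and from 14158607 to 19459045 in MLC. Every synthetase gene had at least 66 counts in every library, and all 37 were tested in every comparison. Transcripts of LOXL2 itself did not rise with the label IL-1β+LOXL2. In SLC the normalized count averaged 11708 ± 165 (SD, n = 3) after IL-1β and 9684 ± 999 (SD, n = 3) after IL-1β+LOXL2. The MLC averages were 15258 ± 1003 (SD, n = 3) and 14600 ± 731 (SD, n = 3), so directions given for LOXL2 rest on the labels. The first SLC IL-1β+LOXL2 replicate stood apart from the other two of its group, with a chi-square per degree of freedom over genes of 169 and 62.0 against them. In SLC the cartilage collagen genes COL2A1 and COL9A1 were at 0 in all 3 IL-1β libraries, whereas in MLC they were present at 10.4 to 20.8 and 11.5 to 15.3 CPM (counts scaled to the library total) with IL-1β. Markers of other cells were low, with summed levels of 50.8 to 134 CPM for 5 blood cell genes, 1.52 to 4.24 for 5 endothelial, 1.94 to 4.44 for 4 osteoblast and 0.362 to 0.719 for 4 skeletal muscle genes, while 5 genes of the superficial and fibrous layer summed to 46720 to 61730 CPM. The blood cell sum was mostly CD14, at 49.1 to 133 CPM, with PTPRC at most 0.103 and TYROBP at most 0.207. The superficial and fibrous sum was nearly all COL1A1 and COL1A2. PRG4 was at 3.80 to 7.28 CPM, and TNMD was at 0 in every library. No label says whether replicates were separate animals or cultures, so p-values measure the spread between these libraries, which may be technical. The libraries are bulk samples, in which fewer cells of a type and less RNA per cell cannot be told apart.

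With LOXL2, 8 of the 20 cytosolic genes lay outside the range of the IL-1β libraries in the same direction in both layers. Of these, 7 were higher and 1 lower. Of the 17 mitochondrial genes PARS2 alone did so, as lower, and 8 had the same sign in both layers. Over the 37 genes 18.9% were higher and 5.41% lower without overlap in both layers, beside 14.5% and 14.8% of all genes tested in both layers. The cytosolic genes for cysteine (CARS), glycine (GARS) and serine (SARS) were higher in every IL-1β+LOXL2 library of both layers, and that for isoleucine (IARS) was lower in every one. In SLC, 0 of the 37 genes passed the threshold (adjusted p under 0.05 over all genes tested, edgeR's quasi-likelihood test), as did 0 of all 14103 genes tested (0%). At an unadjusted p under 0.05, 9 of the 37 were higher and 3 lower in SLC, against 23.1% higher and 20.2% lower among all genes. In MLC, 3 synthetase genes rose and 1 fell past the threshold, that is 4 of 37 (10.8%), against 21.6% of the 13664 genes tested (9.81% higher and 11.8% lower). The share of synthetase genes called in MLC was therefore below that of all genes, and at an unadjusted p under 0.05 it was 8 higher and 2 lower, against 19.2% and 20.1% among all genes.

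**Figure D1:**
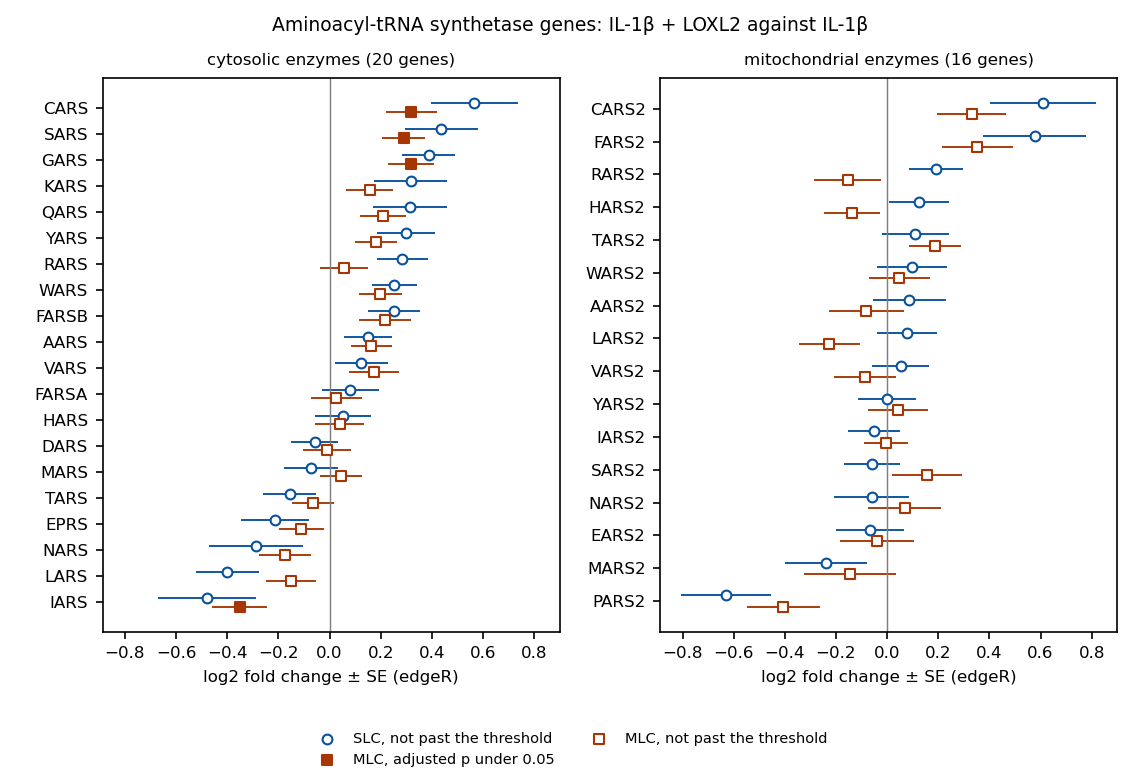
The log2 fold change of IL-1β+LOXL2 over IL-1β (horizontal axis, with standard error from edgeR) is plotted for the 20 cytosolic and for 16 of the 17 mitochondrial synthetase genes in SLC (blue circles) and MLC (brown squares), ordered by the SLC value. Filled symbols passed the threshold, which were CARS, SARS, GARS and IARS in MLC, and 19 of the 20 cytosolic genes but 8 of the 17 mitochondrial genes had the same sign in both layers.

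GARS, the glycine enzyme of both compartments, had normalized counts of 7394, 7231 and 7239 in the 3 SLC IL-1β libraries and of 8699.7, 10232 and 9595 with IL-1β+LOXL2. In MLC the values were 6976, 7154 and 6458 with IL-1β and 7897, 8511 and 9295 with IL-1β+LOXL2. The groups did not overlap in either layer, and the first IL-1β+LOXL2 replicate was the lowest of its group in both. The difference did not pass the threshold in SLC (log2 fold change 0.39, standard error 0.10, adjusted p = 0.0706) and passed it in MLC (log2 fold change 0.32, standard error 0.091, adjusted p = 0.0321).

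CARS, which charges tRNA with cysteine, had 2008, 2214 and 2229 normalized counts in SLC with IL-1β and 2485, 3986 and 3064 with IL-1β+LOXL2. In MLC it had 2538, 2517 and 2487 and 2734, 3249 and 3439.5. The second SLC replicate was the highest, and the 3 MLC IL-1β libraries lay within a narrow range below all treated ones. This was the largest positive log2 fold change of a cytosolic gene in both layers, and it passed the threshold in MLC (log2 fold change 0.32, standard error 0.10, adjusted p = 0.0417) but not in SLC (log2 fold change 0.57, standard error 0.17, adjusted p = 0.0709).

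SARS, the serine enzyme, had 8138, 7489 and 8274 in SLC with IL-1β and 8805, 12444 and 11055 with IL-1β+LOXL2, and in MLC 7277, 7713 and 7572 and 8731, 9026 and 9863. Again no IL-1β+LOXL2 library reached down to those with IL-1β alone. SARS rose past the threshold in MLC (log2 fold change 0.29, standard error 0.085, adjusted p = 0.0344), and the SLC value was log2 fold change 0.44, standard error 0.14, adjusted p = 0.0744. GARS, CARS and SARS are all enzymes outside the multi-tRNA synthetase complex.

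IARS, the isoleucine enzyme and a member of that complex, went the other way. Its normalized counts were 5643, 5660.3 and 5411 in SLC with IL-1β and 5213, 3103 and 3623 with IL-1β+LOXL2, and 5057, 4696 and 4989 and 4521, 3682 and 3374 in MLC. The first treated replicate was close to the IL-1β libraries in each layer, and the other two were far below them. IARS fell in MLC (log2 fold change -0.35, standard error 0.11, adjusted p = 0.0376), and in SLC the call was missed (log2 fold change -0.48, standard error 0.19, adjusted p = 0.0997).

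**Figure D2:**
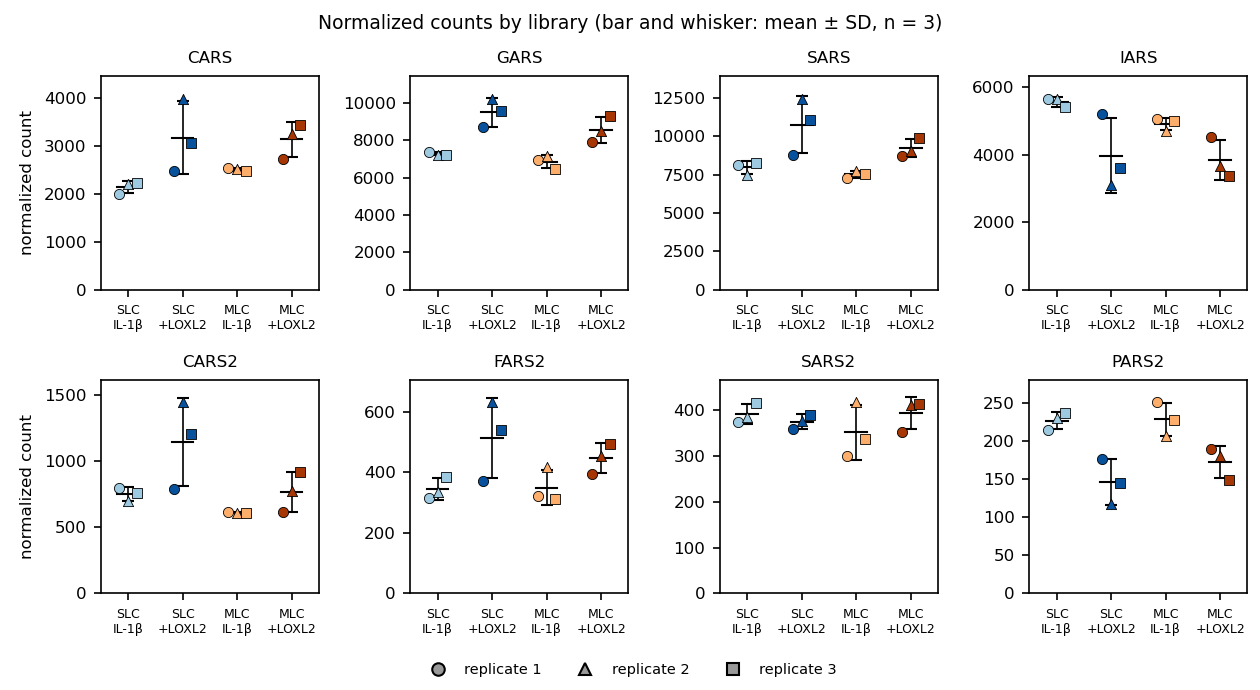
Normalized counts (vertical axis from 0, DESeq2's median of ratios) of 8 synthetase genes are shown for each library, with 1 point per library shaped by replicate number, and bars for mean ± SD of 3. Treated libraries of CARS, GARS and SARS lay above, and those of IARS and PARS2 below, every IL-1β library of the same layer, and in these 5 genes the first treated SLC replicate (circle) was the treated SLC library nearest to the IL-1β group.

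The MLC calls depended on single libraries. All 4 genes lost the call when any of the 3 MLC IL-1β replicates, or MLC IL-1β+LOXL2 replicate 2 or 3, was left out, with adjusted p between 0.0607 and 0.167. The share of all genes called in those fits is not given here, so the loss cannot be set beside that of all genes. With each library left out, the MLC log2 fold change was 0.25 to 0.42 for CARS and 0.25 to 0.38 for GARS. For SARS it was 0.24 to 0.33 and for IARS -0.47 to -0.26. Leaving out the first treated MLC library gave 11 synthetase genes higher and 5 lower, against 48.1% of all genes called. Over all alternatives the adjusted p in MLC ranged from 0.000175 to 0.194 for CARS, from 0.000507 to 0.174 for GARS, from 0.00109 to 0.177 for SARS and from 8.80e-05 to 0.209 for IARS. The fit on all 12 libraries, which gave the highest value for CARS, GARS and SARS, called 0 of all 14534 genes in MLC. In SLC, leaving out the first treated library, 11 synthetase genes were higher and 7 lower, against 61.7% of all genes called. With DESeq2's Wald test 6 SLC genes (CARS, GARS, SARS, WARS, CARS2 and FARS2) were higher and 2 (LARS and PARS2) lower, against 30.0% of all genes, and in a fit on all 12 libraries 11 were higher and 3 lower, against 41.0%.

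The library that stood apart also showed in the synthetase genes, over the 37 somewhat less often than among all genes. The first IL-1β+LOXL2 replicate was the treated library nearest to the IL-1β mean for 17 of the 20 cytosolic genes in SLC and 15 of 20 in MLC. Among the mitochondrial genes it was nearest for 8 of 17 and 9 of 17. Over the 37 genes this was 67.6% in SLC and 64.9% in MLC, and among all genes tested 75.5% and 69.5%. In SLC the summed level of 8 chondrocyte marker genes moved in the same way, at 1275 to 1392 CPM with IL-1β, 1295 in the first treated replicate and 610.4 and 863 in the other two. Most of this sum was COL11A1, at 1199 to 1315 CPM with IL-1β and 1206, 563 and 803 with IL-1β+LOXL2. COL11A2, at low levels, was higher in every treated SLC library. In MLC the summed level of the 8 markers was 1635 to 1800 CPM with IL-1β and 1282 to 1727 with IL-1β+LOXL2. The part of these shifts in the synthetase results was not tested.

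Among the other cytosolic enzymes outside the complex, WARS (tryptophan), YARS (tyrosine), AARS (alanine) and FARSB (the beta subunit of the phenylalanine enzyme) were also higher in every treated library of both layers. WARS had 4454, 4261 and 4394 normalized counts with IL-1β and 5179, 5313 and 5094 with IL-1β+LOXL2 in SLC, and 3966, 3587 and 3742 and 4193, 4364 and 4431 in MLC. The treated SLC libraries of WARS were tightly grouped, unlike those of CARS. The SLC difference (log2 fold change 0.25, standard error 0.090, adjusted p = 0.0825) and the MLC difference (log2 fold change 0.20, standard error 0.084, adjusted p = 0.102) did not pass. For YARS, AARS and FARSB the log2 fold change ranged from 0.15 to 0.30 (SLC) and from 0.16 to 0.22 (MLC), none past the threshold. VARS (valine), HARS (histidine) and FARSA (the alpha subunit of the phenylalanine enzyme) had positive log2 fold changes of at most 0.12 in SLC and 0.17 in MLC, with groups that overlapped. NARS (asparagine) and TARS (threonine) had negative values in both layers, between -0.29 and -0.066, and TARS did not overlap between treatments in SLC. In all, 10 of the 12 enzymes outside the complex had a positive log2 fold change in each layer, as did 50.7% of all genes in SLC and 50.9% in MLC, with a median of 0.20 in SLC and 0.18 in MLC. With the trend of the fold change over gene length removed, 7 of the 12 were positive in SLC and 8 in MLC, and the medians were 0.21 and 0.18.

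The 8 synthetases of the multi-tRNA synthetase complex did not move together. In SLC the median of their log2 fold changes was -0.065, where 3 were positive and 5 negative, and in MLC it was 0.016, where 4 were positive and 4 negative. These signs depended on the trend over gene length: with it removed, 5 were positive and 3 negative in SLC (median 0.056) and 7 positive and 1 negative in MLC (median 0.055). The log2 fold change of IARS was then -0.19 in SLC and -0.14 in MLC, and that of LARS -0.13 in SLC and 0.035 in MLC, none past the threshold. LARS, the leucine enzyme, had 1442, 1462 and 1374 normalized counts in SLC with IL-1β and 1239.8, 963 and 1028 with IL-1β+LOXL2. The SLC groups did not overlap (log2 fold change -0.40, standard error 0.12, adjusted p = 0.0715). In MLC, with 1460.3, 1396 and 1442 and 1456, 1243 and 1182, they did (log2 fold change -0.15, adjusted p = 0.277).

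QARS (glutamine) and KARS (lysine) had positive values in this complex. QARS had 2644, 2348 and 2584 and 2534, 3638 and 3222 in SLC, where the first treated library lay among the IL-1β libraries, and 2143, 2299.5 and 2245 and 2383, 2696 and 2660.0 in MLC, where the groups did not overlap. Its log2 fold change was 0.31 (adjusted p = 0.135) and 0.21 (adjusted p = 0.109). KARS was positive with overlap in both layers. RARS, the arginine enzyme, had 889, 889.9 and 933 in SLC with IL-1β and 1052, 1182 and 1062 with IL-1β+LOXL2 (log2 fold change 0.29, standard error 0.098, adjusted p = 0.0799), without overlap, whereas in MLC its log2 fold change was 0.056. EPRS had log2 fold changes of -0.21 and -0.11, MARS (methionine) of -0.072 and 0.044, and DARS (aspartate) was negative in both layers, all with overlap. DARS was the steadiest cytosolic gene, with a standard deviation of 0.072 in log2 normalized counts over the 12 libraries.

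Genes of the scaffold had higher counts in every treated library, in both layers. AIMP1 had 1292, 1084 and 1256 normalized counts in SLC with IL-1β and 1407, 2510.1 and 1844 with IL-1β+LOXL2, and 1009, 1128 and 977 and 1182, 1349 and 1439.9 in MLC. The order of the treated SLC libraries was that seen for CARS, with the first lowest and the second highest. AIMP1 rose past the threshold in MLC (log2 fold change 0.35, standard error 0.11, adjusted p = 0.0382). Its SLC value (log2 fold change 0.67, standard error 0.21, adjusted p = 0.0715) and those of AIMP2 (0.50 in SLC and 0.29 in MLC) and EEF1E1 (0.40 and 0.14) did not pass. The scaffold median was thus 0.50 in SLC and 0.29 in MLC, beside -0.065 and 0.016 for the synthetases that the scaffold holds.

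Over the 17 mitochondrial enzymes the SLC median of the log2 fold change was 0.053, with 9 positive, and the MLC median -0.0041, with 8 positive. The medians over all genes tested were 0.013 and 0.0079. None of the 17 passed the threshold in either layer. In SLC 2 were higher and 1 lower at an unadjusted p under 0.05, and the counts were the same in MLC, against 23.1% and 20.2% of all genes in SLC and 19.2% and 20.1% in MLC. With the trend over gene length removed they were 5 higher and 3 lower in SLC and 4 higher and 2 lower in MLC, where FARS2 was then called higher and PARS2 lower. The share of all genes at that unadjusted p is not given for this fit. At the adjusted threshold it called 13.3% of all genes in MLC. The individual genes nevertheless covered a wider range than the cytosolic ones in SLC, from -0.63 to 0.61, against -0.48 to 0.57. Their counts were lower, with SLC group means of 84.4 to 1477 normalized counts, against 686 to 10768 for the cytosolic genes. The part of the lower counts in the wider range was not tested.

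CARS2, the mitochondrial cysteine enzyme, had 799.9, 696 and 761 normalized counts in SLC with IL-1β and 789.6, 1442 and 1204 with IL-1β+LOXL2. In MLC it had 611, 606 and 609.9 and 615, 771 and 916. The first treated SLC replicate lay among the IL-1β libraries, and the other two were far above them, while in MLC the groups only just separated. CARS2 had the largest positive log2 fold change of the mitochondrial genes in SLC (log2 fold change 0.61, standard error 0.21, adjusted p = 0.0791), and its MLC value was also positive (log2 fold change 0.33, standard error 0.13, adjusted p = 0.0907). CARS and CARS2 thus had log2 fold changes that differed by 0.043 in SLC and 0.011 in MLC.

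FARS2, the mitochondrial phenylalanine enzyme, was singled out after its values were seen. It had 315, 336 and 385 in SLC with IL-1β and 370.1, 631 and 540.2 with IL-1β+LOXL2, and 321, 416 and 311 and 394, 455 and 493 in MLC. In each layer 1 treated library overlapped the IL-1β range, and neither difference passed (log2 fold change 0.58, adjusted p = 0.0817 in SLC, and 0.35, adjusted p = 0.0832 in MLC). The subunits of the cytosolic phenylalanine enzyme had smaller log2 fold changes, between 0.026 and 0.25 over both layers.

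PARS2, which charges mitochondrial tRNA with proline, was the mitochondrial gene with the largest negative value in both layers. Its normalized counts were 214, 229.8 and 236 in SLC with IL-1β and 177, 117 and 145 with IL-1β+LOXL2, and 251, 207 and 228 and 189, 180.1 and 149 in MLC. All treated libraries lay below all IL-1β libraries in both layers. The difference did not pass the threshold in SLC (log2 fold change -0.63, standard error 0.18, adjusted p = 0.0706) or in MLC (log2 fold change -0.41, standard error 0.14, adjusted p = 0.0608).

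RARS2 (arginine) was the mitochondrial gene whose treated SLC libraries all lay above the IL-1β ones. It had 277, 263 and 268 and 307, 308 and 305 normalized counts in SLC, and 299, 264 and 312 and 293, 258 and 236 in MLC, where the treated mean was the lower. Neither the SLC difference (log2 fold change 0.19, standard error 0.11, adjusted p = 0.197) nor that of MLC (log2 fold change -0.15, standard error 0.13, adjusted p = 0.403) passed. MARS2 (methionine) had 100.2, 101 and 98.3 and 96.2, 80.3 and 76.8 in SLC, lower in every treated library (log2 fold change -0.24, standard error 0.16, adjusted p = 0.271), and a log2 fold change of -0.14 in MLC, where groups overlapped. TARS2 (threonine) had 513, 459 and 518 and 559.8, 567 and 573 in MLC, higher in every treated library (log2 fold change 0.19, standard error 0.10, adjusted p = 0.192), and 0.11 in SLC with overlap. Log2 fold changes of opposite sign in the layers were found for RARS2 and for other mitochondrial genes, none of which passed, among them AARS2 (alanine), HARS2 (histidine), LARS2 (leucine), NARS2 (asparagine), SARS2 (serine), VARS2 (valine) and YARS2 (tyrosine). SARS2 had -0.059 in SLC and 0.16 in MLC, and LARS2 had 0.077 and -0.23.

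IARS2, the mitochondrial isoleucine enzyme, was the steadiest of all 37 genes, with a standard deviation of 0.061 in log2 normalized counts over the 12 libraries. It had 1429, 1558 and 1444 and 1528, 1357 and 1383 normalized counts in SLC and 1490.5, 1455 and 1491 and 1543, 1435 and 1452 in MLC. Its libraries overlapped in every comparison, whereas its cytosolic counterpart IARS was lower in every treated library. SARS2 likewise overlapped between treatments in SLC, with 374, 385 and 414 and 358, 375 and 389.9, where SARS did not. AARS2, EARS2 (glutamate), NARS2, VARS2, WARS2 (tryptophan) and YARS2 overlapped in both layers, with log2 fold changes from -0.068 to 0.097 (SLC) and from -0.085 to 0.068 (MLC).

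Side by side, the layers had the same sign for 19 of 20 cytosolic genes (MARS was the exception), 8 of 17 mitochondrial genes and 87.8% of the 13416 genes tested in both layers. Across genes, which are not independent replicates and share the same libraries within a layer, Pearson's r between the SLC and MLC log2 fold changes was 0.95 over the 20 cytosolic genes (Spearman's rho 0.92). Over the 17 mitochondrial genes it was 0.64 (rho 0.29), and over all genes tested in both layers 0.86 (rho 0.87). The mitochondrial genes had lower counts than the cytosolic ones, and the part of this in the weaker agreement was not tested. Treated and IL-1β libraries did not overlap, in the same direction in both layers, for 7 genes that were higher (AARS, CARS, GARS, SARS, WARS, YARS and FARSB) and 2 that were lower (IARS and PARS2). That is 18.9% and 5.41% of the 37, beside 14.5% and 14.8% of all genes. Within single layers, 9 synthetase genes were higher and 5 lower without overlap in SLC and 10 and 2 in MLC, beside 49.0% (23.8% higher and 25.2% lower) and 41.4% (21.5% and 19.9%) of all genes.

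The median level of each set was also taken in every library, relative to the mean of the 6 libraries of its layer. For the cytosolic set it was -0.12, -0.048 and -0.029 (log2) in the SLC IL-1β libraries and 0.015, 0.13 and 0.093 with IL-1β+LOXL2, and in MLC -0.022, -0.056 and -0.042 and then 0.050, 0.034 and 0.12. All treated libraries lay above all IL-1β libraries in both layers. For the mitochondrial set it was -0.028, -0.015 and 0.018 and then 0.020, -0.028 and 0.028 in SLC, and 0.031, 0.014 and -0.026 and then 0.050, -0.082 and 0.047 in MLC, with overlap in both. The difference between the sets, mitochondrial minus cytosolic, averaged 0.059 ± 0.033 (SD, n = 3) in SLC libraries after IL-1β alone and -0.074 ± 0.084 (SD, n = 3) after LOXL2 was added, and 0.046 ± 0.028 (SD, n = 3) and -0.064 ± 0.059 (SD, n = 3) in MLC. Mitochondrial synthetases took between 8.33% and 8.90% of the synthetase counts of a library.

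**Figure D3:**
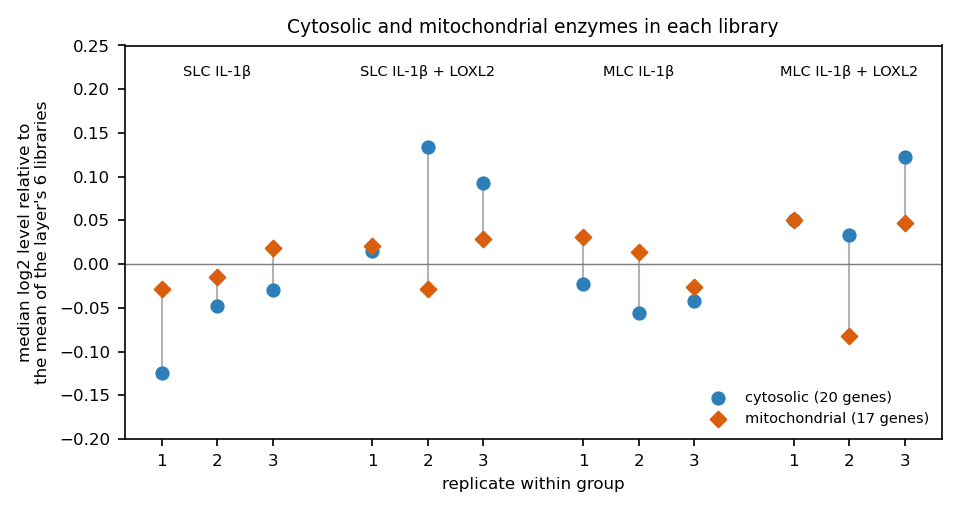
The median log2 level of the 20 cytosolic (blue circles) and 17 mitochondrial (orange diamonds) synthetase genes is plotted for each library, relative to the mean of the 6 libraries of its layer. With IL-1β the cytosolic median lay between -0.12 and -0.022 and with IL-1β+LOXL2 between 0.015 and 0.13, while the mitochondrial medians of the treatments overlapped.

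Genes for the proteins of the mitochondrial ribosome, which uses the tRNAs charged by the mitochondrial enzymes, had larger values. Over 77 genes of mitochondrial ribosomal proteins the median reached 0.64 (log2 fold change) for SLC and 0.37 for MLC, with positive values for 77 and 75 of them. In MLC 35 of the 77 passed the threshold and all were higher, beside 0 of the 17 mitochondrial synthetases. Among all genes 9.81% rose and 11.8% fell in MLC. These values are from the fit with the trend over gene length left in. The difference between the ribosomal protein and synthetase lists was not tested. By catalytic class, the 18 class I enzymes had medians of 0.087 in SLC and 0.044 in MLC and the 18 class II enzymes of 0.084 and 0.10, with EPRS, which holds both, left out.

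Other steps of mitochondrial tRNA supply had medians between those of the synthetases and the ribosomal proteins, apart from the amidation route in SLC. TUFM, the elongation factor that brings charged tRNA to the mitochondrial ribosome, had 1513, 1429 and 1609 normalized counts in SLC with IL-1β and 1657, 3045 and 2429 with IL-1β+LOXL2, and 1576, 1506 and 1617 and 1893, 2254 and 2355 in MLC. Every treated library was higher, and TUFM rose past the threshold in MLC (log2 fold change 0.47, standard error 0.10, adjusted p = 0.0200) but not in SLC (log2 fold change 0.65, standard error 0.21, adjusted p = 0.0731). Of the 10 genes for formylation of the initiator tRNA and for translation factors, TUFM was the 1 that passed in MLC, and the list's median was 0.26 in SLC and 0.11 in MLC. MTFMT, which formylates the initiator methionyl-tRNA, had values of 0.30 and 0.23. Of 15 genes for processing and modification of mitochondrial tRNA, 2 rose and 0 fell past the threshold in MLC, with medians of 0.21 in SLC and 0.16 in MLC. The genes of the amidation route to mitochondrial glutaminyl-tRNA had values of -0.31 and -0.20 for QRSL1, -0.045 and 0.23 for GATB, and 0.36 and 0.24 for GATC in SLC and MLC, none past the threshold. None of the genes in these lists passed in SLC, as for all genes (0%), and in MLC 9.81% of all genes rose and 11.8% fell.

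Among genes of cytosolic tRNA delivery, export and proofreading, 8 of the 11 written were tested, and 3 rose and 1 fell past the threshold in MLC, with medians of 0.50 in SLC and 0.29 in MLC. Of 32 genes of the ATF4 and amino acid response, 4 rose and 5 fell past the threshold in MLC and 0 passed in SLC, with medians of 0.083 in SLC and 0.097 in MLC. Among all genes 9.81% rose and 11.8% fell in MLC and 0% passed in SLC. With the trend over gene length removed the medians were -0.058 and 0.023. ATF4 itself had 8348, 8052 and 9152 normalized counts in SLC with IL-1β and 9776, 12900.1 and 11881 with IL-1β+LOXL2, and 8825, 9796 and 8975 and 10208, 10699.5 and 10842 in MLC. Every treated library was higher, without a call (log2 fold change 0.44, adjusted p = 0.0708 in SLC, and 0.20, adjusted p = 0.0973 in MLC). PHGDH, which opens the route of serine synthesis, rose past the threshold in MLC (log2 fold change 0.42, standard error 0.10, adjusted p = 0.0229). The others that passed in MLC were named after their values were seen. The transcription factor ATF5 (log2 fold change 0.33), the stress-induced nuclear protein NUPR1 (0.62) and the translation inhibitor EIF4EBP1 (0.42) rose. SLC7A11, the cystine and glutamate exchanger, fell the most (log2 fold change -1.52, standard error 0.27, adjusted p = 0.0190), and its SLC value was -2.02 (adjusted p = 0.0706). The amino acid transporters SLC7A1 (-0.66) and SLC38A2 (-0.34) and the eIF2 kinases EIF2AK3 (-0.38) and EIF2AK4 (-0.46) fell as well. ASNS, asparagine synthetase, had values of 0.25 and 0.23, CHAC1, a glutathione-degrading enzyme, of 0.18 and 0.24, and PSAT1, the next enzyme of serine synthesis, of -0.034 and 0.023, none past the threshold.

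The layers were compared next. Under IL-1β alone, 9 synthetase genes were higher and 5 lower in MLC than in SLC past the threshold, that is 14 of 37 (37.8%), against 46.9% of the 13965 genes tested (24.2% higher and 22.7% lower). The layers were deposited in separate tables, and layer cannot be told apart from any separate handling of the layers. The summed level of 8 chondrocyte markers was also higher in MLC under IL-1β, at 1635 to 1800 CPM beside 1275 to 1392 in SLC. ACAN was at 349 to 436 CPM in MLC and 46.4 to 51.7 in SLC. COL11A1, the largest part of the sum, was not higher in MLC, at 1158 to 1220 CPM beside 1199 to 1315. Of the 8 markers, 2 were at 0 in all SLC IL-1β libraries and none in MLC. Their part in the differences of synthetase genes was not tested. Without the first SLC or the first MLC IL-1β replicate 5 genes were higher and 2 lower, and without the third MLC replicate 7 were higher and 1 lower. The share of all genes called in those fits is not given here, so these counts cannot be set beside it.

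VARS, the valine enzyme, had 1919.9, 2161 and 2114 normalized counts in the SLC and 2925, 2567 and 2749 in the MLC IL-1β libraries. With IL-1β+LOXL2 it had 2074, 2404 and 2257 in SLC and 2805, 3235 and 3266 in MLC. Every MLC library was above every SLC library under both treatments. It was the 1 synthetase gene that passed under both, with log2 fold changes of MLC over SLC of 0.43 (standard error 0.068, adjusted p = 0.000119) and 0.48 (standard error 0.12, adjusted p = 0.0323).

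FARSA had 767, 857 and 921 in SLC and 1189, 999 and 1205 in MLC with IL-1β (log2 fold change 0.43, standard error 0.087, adjusted p = 0.000888). RARS had 889, 889.9 and 933 and 1173, 1149 and 1160.4 (log2 fold change 0.38, standard error 0.062, adjusted p = 0.000159), and HARS 627, 716 and 715 and 878, 825 and 868 (log2 fold change 0.34, standard error 0.074, adjusted p = 0.00164). In these 3 genes no MLC library reached down to SLC. CARS (0.24) and FARSB (0.18) were higher in MLC by smaller amounts, and EPRS also passed. WARS (-0.20) and AARS (-0.18) were lower in MLC, and IARS also passed as lower.

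Among the mitochondrial genes, AARS2 had 119, 120.3 and 127 in SLC and 177, 146 and 149.7 in MLC with IL-1β, higher in each MLC library (log2 fold change 0.39, standard error 0.13, adjusted p = 0.0255), and VARS2 had a log2 fold change of 0.24 (adjusted p = 0.0333). CARS2 (log2 fold change -0.28, standard error 0.074, adjusted p = 0.00579) was lower in each MLC library, and WARS2 was lower past the threshold with overlap (log2 fold change -0.23, standard error 0.085, adjusted p = 0.0359). The compartments of an amino acid did not always go together. VARS and VARS2 were both higher and WARS and WARS2 both lower in MLC, whereas alanine and cysteine had opposite calls, with AARS lower and AARS2 higher, and CARS higher and CARS2 lower. Over 16 pairs of a mitochondrial gene and its cytosolic counterpart, 11 had the same sign between layers under IL-1β, and for the LOXL2 difference 12 did in SLC and 8 in MLC.

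**Figure D4:**
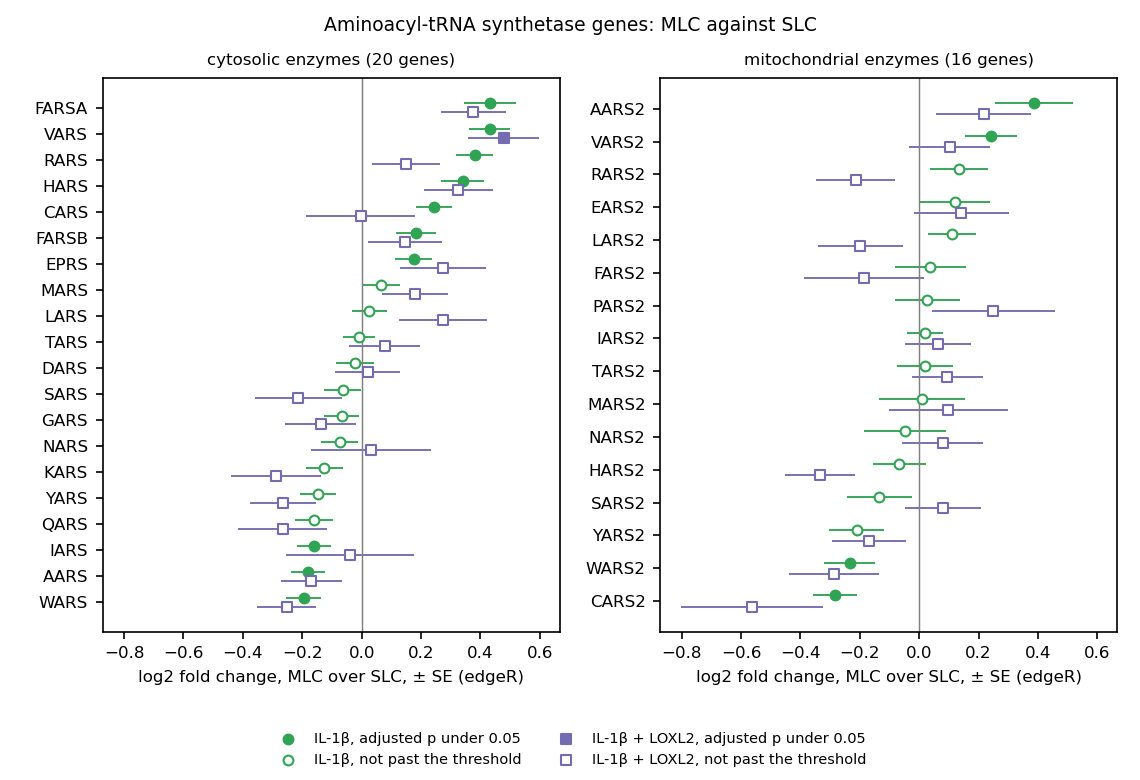
The log2 fold change of MLC over SLC (horizontal axis, with standard error from edgeR) is plotted for the 20 cytosolic and 16 of the 17 mitochondrial synthetase genes under IL-1β (green circles) and under IL-1β+LOXL2 (purple squares), with filled symbols for adjusted p under 0.05. Under IL-1β 14 genes passed, led by FARSA and VARS at 0.43 and by CARS2 at -0.28, and under IL-1β+LOXL2 VARS passed at 0.48.

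Under IL-1β+LOXL2, VARS was the 1 of 37 that passed (2.70%), against 16.1% of the 14085 genes tested. With the replicate number as a block, since same-numbered libraries deviated together in this comparison, FARSA, HARS and VARS were higher and CARS2 lower in MLC, against 27.6% of all genes called. In that fit the log2 fold change was 0.38 for FARSA (adjusted p = 0.0270), 0.33 for HARS (adjusted p = 0.0451), 0.48 for VARS (adjusted p = 0.00869) and -0.54 for CARS2 (adjusted p = 0.0136). Without the first SLC IL-1β+LOXL2 replicate, 4 genes were higher and 4 lower, against 32.9% of all genes, and VARS was among those higher. Without SLC replicate 3, or without MLC replicate 2 or 3, no synthetase gene was higher past the threshold, and the share of all genes is not given for these fits. The layer comparisons share libraries with the LOXL2 comparisons and are no separate evidence of them.

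The difference of the LOXL2 effect between the layers was tested directly as an interaction over all 12 libraries. No synthetase gene passed, as for all genes (0 of 14534, with 328 or 2.26% at an unadjusted p under 0.05, and 0 with DESeq2). The smallest p was that of RARS2, whose LOXL2 effect was lower in MLC by 0.36 on the log2 scale (standard error 0.15, edgeR's adjusted p = 0.959). This was the 1 synthetase gene at an unadjusted p under 0.05. A difference between layers was thus not detectable with these libraries, also for genes whose effect had opposite signs.

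By level over the 12 libraries, the genes most alike were QARS and CARS2 (Pearson's r = 0.97 of log2 normalized counts over n = 12 libraries, which share layers and treatments), KARS and CARS2 (0.97), and HARS and VARS (0.96). QARS, KARS and CARS2 shared a high level in treated SLC replicates 2 and 3, and HARS and VARS shared a higher level in MLC. The genes that varied most were CARS2 (standard deviation 0.40 in log2), PARS2 and FARS2 (both 0.33), against 0.31 for IARS, the most variable cytosolic gene.

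In the goat genome ARS1.2 the 37 genes lie on many chromosomes, and few are neighbours. HARS2 (chromosome 7, 58674889 to 58682059) and HARS (chromosome 7, 58682131 to 58695144) lie 71 bases apart. They were compared after their values were seen. Under IL-1β HARS was higher in MLC past the threshold, while HARS2 had a log2 fold change of -0.067 (adjusted p = 0.572). Under IL-1β+LOXL2 the values were 0.33 for HARS and -0.33 for HARS2, neither past the threshold. EPRS and IARS2 lie 46975 bases apart on chromosome 16. Of the genes described above, CARS lies on chromosome 29 (49596764 to 49640562), GARS on chromosome 4 (54488541 to 54560670), SARS on chromosome 3 (86346051 to 86366525), IARS on chromosome 8 (83601060 to 83682296), CARS2 on chromosome 12 (1048304 to 1066956), FARS2 on chromosome 23 (16209965 to 16515551) and PARS2 on chromosome 3 (29247163 to 29253016). MARS overlaps DDIT3, RARS2 overlaps SLC35A1, and RARS, FARSA and IARS2 overlap other annotated loci, so that without stated strand settings their counts cannot be fully told apart from those of the overlapping genes.

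Over all genes, the log2 fold change with LOXL2 was lower in longer genes, by genomic length with introns, with Spearman's rho of -0.49 in each layer (14073 and 13637 genes). Over the 37 synthetase genes it was 0.094 in SLC and 0.083 in MLC, and their median length was 21648 bases, beside 20774 and 21271 for all genes tested. With this trend removed, PARS2 was lower and CARS, GARS, SARS, FARSB and FARS2 were higher past the threshold in MLC, and IARS, which spans 81237 bases, was not called (adjusted p = 0.209), against 13.3% of all genes. The MLC log2 fold change in that fit was 0.44 for CARS, 0.53 for GARS, 0.26 for SARS, 0.42 for FARSB, 0.65 for FARS2 and -0.59 for PARS2. The range of lengths was wide, from 2982 bases for MARS2 to 305587 for FARS2. The log2 fold changes of EPRS and IARS2 in both layers and of LARS, LARS2 and RARS2 in MLC changed sign to positive with the trend removed. That of DARS in MLC did so too, and in each layer some cytosolic enzymes outside the complex changed to negative.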

How the data were processed

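RNA sequencing libraries of cultured goat TMJ cells were analysed, 3 in each of 4 groups that were taken from the sample labels. The authors deposited raw gene counts, with the layers in separate tables. The submitters' processing notes name HISAT2 and featureCounts, and strand and multi-mapping settings are not given in the sources used here. The paired-end libraries were made from poly-A RNA. Both tables were joined by row (28910 rows), and 1783 rows with a duplicated name were kept apart. The members and lists were chosen with earlier results of these data known.

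The quasi-likelihood F-test of edgeR 4.0.16 (R 4.3.3) was run on TMM-scaled libraries after filterByExpr (at least 10 counts, and 15 in total), separately on the 6 libraries of each comparison and on all 12 for the interaction. P-values were adjusted by Benjamini-Hochberg over all genes tested, with a threshold of 0.05, and each standard error was taken as the absolute log2 fold change divided by √F. Counts were normalized by DESeq2 1.42.0 size factors over the 12 libraries. The tests were tried on simulated data. Library totals are given with the results, and no replicate pair agreed within sampling noise.

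Fold changes with errors are given for genes past the threshold (the 12 largest where more passed), for genes without overlap among the 6 smallest p of their compartment, and for their counterparts of the same amino acid. Alternatives were DESeq2's size factors, DESeq2's Wald test, other filters on low counts, a replicate block, a fit on all 12 libraries, removal of the gene-length trend (lowess span 0.3), each library left out, and the cytosolic set without GARS and KARS. Same-numbered libraries of the layers under IL-1β+LOXL2 deviated together (correlations of 0.605, 0.206 and 0.168 over genes), which comes from the data and not from the labels. The values of 1 synthetase gene are not reported here by name, and it is counted in all totals and medians. Protein and promoter sequences and levels per exon length were not analysed here. Counts set beside each other between genes, and the mitochondrial share of synthetase counts, are therefore not corrected for transcript length. Gene positions are from the ARS1.2 annotation.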

Additional observations from a re-analysis of the deposited data

How the results depend on the processing

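Each synthetase gene had at least 66 counts per library, but with 3 libraries a group the calls turned on single libraries, and the cause was not tested. Of the recomputed counts and medians 247 stayed close to the main value and 57 moved, some medians with a change of sign. In SLC, 0 calls became 6 higher and 2 lower with DESeq2's Wald test, against 30.0% of all genes called. They became 11 and 3 in the fit on all 12 libraries, against 41.0%, and ranged from 0 to 11 and 0 to 7 with a library left out. The SLC mitochondrial median was -0.029 with the length trend removed and -0.0017 to 0.035 with a library left out, and the mitochondrial minus cytosolic median -0.18 to -0.084. In MLC, 3 higher and 1 lower became 0 and 0 in the fit on all 12 libraries, which called 0 of all 14534 genes. The calls became 5 higher with the length trend removed, against 13.3% of all genes called. They ranged from 0 to 11 and 0 to 5 with a library left out. The MLC cytosolic median was 0.050 without GARS and KARS, and the mitochondrial minus cytosolic median -0.043 with the trend removed and -0.17 to -0.051 with a library left out. Between layers under IL-1β, 9 higher and 5 lower became 5 and 0 in the fit on all 12 libraries, against 25.6% of all genes. With a library left out they were 5 to 8 and 1 to 7. The mitochondrial median there was -0.022 with the trend removed and -0.033 to 0.033 with a library left out, and the difference of medians -0.031 and -0.039 to 0.064. Under IL-1β+LOXL2, 1 higher and 0 lower became 2 higher with DESeq2's Wald test, against 20.5% of all genes called. The fit on all 12 libraries gave 3 and 4, against 28.9%, and fits with a library left out gave 0 to 4 and 0 to 4. The cytosolic median was 0.0039 to 0.12 and the difference of medians -0.064 to 0.035. For fits with a library left out, the share of all genes called is given only where a first IL-1β+LOXL2 replicate was removed.

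With the replicate number as a block, MLC had 5 genes higher (CARS, CARS2, FARS2, GARS and SARS) and 2 lower (IARS and PARS2), the layers under IL-1β 5 and 2, and the layers under IL-1β+LOXL2 3 and 1. The block fit called 29.7% of all genes in MLC, 41.6% between layers under IL-1β and 27.6% between layers under IL-1β+LOXL2. SLC and the interaction stayed at 0, as for all genes. Pairing correlations were 0.0302, -0.227 and 0.124 in SLC, 0.0805, 0.110 and -0.0519 in MLC, and -0.0472, -0.0894 and -0.0462 between layers under IL-1β, so that numbers there do not pair libraries, and 1, 2 and 0 of the 3 numbers correlated best with their own.

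Signs of single genes reversed as follows, in a list that leaves out DARS in MLC and some cytosolic enzymes outside the complex. With the length trend removed the log2 fold change was 0.050 for EPRS, 0.16 for IARS2 and -0.016 for TARS2 in SLC, and 0.075 for EPRS, 0.14 for IARS2, 0.035 for LARS, 0.031 for LARS2 and 0.046 for RARS2 in MLC. IARS2 in MLC was 0.0023 with no filter on low counts and -0.031 to 0.013 with a library left out. WARS2 ranged from -0.0078 to 0.20 in SLC and from -0.031 to 0.13 in MLC.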
